A study of Mus musculus with 7 samples.

Results

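Imprinted genes were described in E15.5 mouse embryonic pancreas, profiled by sequencing of polyadenylated RNA. The 41 genes were taken as a list of symbols with known imprinting in the mouse, and no measured level enters the rule. The deposited table of 27138 features held 40 of them, and 39 had enough counts to be tested. Rtl1 was not analysed here. Of the 41 genes, 23 were classed as paternally expressed and 12 as maternally expressed. The other 6 were classed as genes with imprinting limited to some isoforms or tissues (Copg2, Gnas, Ube3a, Ppp1r9a, Commd1 and Inpp5f). Counts are per gene, so isoforms are not separated in any class. The 41 genes fall into 19 imprinted domains on 10 chromosomes.

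The 3 cKO embryos carried Pdx1Cre together with homozygous floxed alleles of the mouse ortholog of LINC00673 (mLINC00673 fl/fl), a long non-coding RNA listed in the table as 2610035D17Rik. The 4 WT embryos carried the same floxed alleles without Cre, so both groups share the floxed locus and differ in Cre as well as in the deletion. Pdx1-Cre acts in the pancreatic epithelium, while the dissected organ also holds mesenchyme, vessels, nerves and blood. Each library came from an independent animal, per the labels. No allele-specific counts were used here, so all values are sums over both parental alleles.

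An imprinted gene is expressed mainly from the copy inherited from one parent, because DNA methylation laid down in the egg or the sperm marks a control region that governs a whole cluster of neighbouring genes. Within a cluster, protein-coding genes and long non-coding RNAs are often expressed from opposite parental copies. Many paternally expressed genes, such as Igf2, are known to promote fetal growth, and many maternally expressed ones, such as Cdkn1c, Grb10 and Igf2r, to restrain it. Methylated control regions are protected after fertilisation by the zinc finger proteins ZFP57 and ZFP445, and ZFP57 binds the letters TGCCGC when their CpG is methylated.

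RefSeq promoter windows of 300 bases, 250 before and 50 after the start, were found for 34 of the 41 genes on GRCm38.p6, with 51 windows in all. The letters TGCCGC, searched on both strands, stood in 14 of these windows (27.5%), against 11.6% of all 32851 promoter windows of the same length. The median window held 15 CpGs among imprinted genes and 7 among all windows. A second set of letters, GCATGCG, the core of the motif bound by NRF1, was searched on both strands after the windows had been read, and it stood in 7 windows (13.7%) against 3.58% of all windows. Those 7 windows belong to Snrpn (4 windows), Ndn, Nnat and Commd1. In each of them the match is the 8-letter palindrome CGCATGCG, which holds GCATGCG once on each strand. As some genes have several windows, shares were also counted by gene. By gene, GCATGCG stood in 11.8% of the 34 genes against 4.01% of all genes with a window. For TGCCGC these shares were 38.2% and 13.1%. The windows below, 1 per gene, were picked after the values were seen: Snrpn and Ndn, and Peg3 and Mest, are pairs that covaried over the libraries, and Nnat and Nap1l5 followed the library order of neuron markers, as described further on. Capitals mark both sets of letters on either strand.
Snrpn, GRCm38.p6 chr7:60005150-60005449, minus strand: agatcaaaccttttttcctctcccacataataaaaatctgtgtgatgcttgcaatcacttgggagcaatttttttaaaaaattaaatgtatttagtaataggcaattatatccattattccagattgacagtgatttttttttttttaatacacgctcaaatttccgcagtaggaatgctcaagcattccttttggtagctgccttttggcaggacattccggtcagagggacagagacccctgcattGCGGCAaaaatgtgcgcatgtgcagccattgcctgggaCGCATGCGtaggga
Ndn, GRCm38.p6 chr7:62348027-62348326, plus strand: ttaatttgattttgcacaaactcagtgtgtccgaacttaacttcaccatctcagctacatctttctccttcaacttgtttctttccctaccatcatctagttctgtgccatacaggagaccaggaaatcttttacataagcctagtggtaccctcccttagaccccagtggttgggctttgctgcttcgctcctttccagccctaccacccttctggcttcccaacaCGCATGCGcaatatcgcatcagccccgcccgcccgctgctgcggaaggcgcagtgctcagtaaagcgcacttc
Nnat, GRCm38.p6 chr2:157559828-157560127, plus strand: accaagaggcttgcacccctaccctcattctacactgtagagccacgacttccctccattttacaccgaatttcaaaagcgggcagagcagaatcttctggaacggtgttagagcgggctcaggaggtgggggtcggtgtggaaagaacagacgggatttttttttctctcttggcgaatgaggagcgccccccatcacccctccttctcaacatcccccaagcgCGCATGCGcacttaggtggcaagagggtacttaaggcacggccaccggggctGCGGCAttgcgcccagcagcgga
Nap1l5, GRCm38.p6 chr6:58907077-58907376, minus strand: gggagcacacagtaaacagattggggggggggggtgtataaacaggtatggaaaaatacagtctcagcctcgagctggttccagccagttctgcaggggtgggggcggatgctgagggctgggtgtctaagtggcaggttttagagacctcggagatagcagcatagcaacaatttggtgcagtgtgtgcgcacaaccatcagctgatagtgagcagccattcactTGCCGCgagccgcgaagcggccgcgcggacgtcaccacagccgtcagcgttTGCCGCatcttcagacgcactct
Mest, GRCm38.p6 chr6:30737800-30738099, plus strand: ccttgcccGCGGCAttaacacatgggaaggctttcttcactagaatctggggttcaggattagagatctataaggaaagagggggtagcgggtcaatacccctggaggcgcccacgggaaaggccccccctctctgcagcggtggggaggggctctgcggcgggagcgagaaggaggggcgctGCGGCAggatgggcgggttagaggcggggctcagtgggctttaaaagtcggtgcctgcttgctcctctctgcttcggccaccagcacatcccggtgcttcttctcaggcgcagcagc
Peg3, GRCm38.p6 chr7:6730370-6730669, minus strand: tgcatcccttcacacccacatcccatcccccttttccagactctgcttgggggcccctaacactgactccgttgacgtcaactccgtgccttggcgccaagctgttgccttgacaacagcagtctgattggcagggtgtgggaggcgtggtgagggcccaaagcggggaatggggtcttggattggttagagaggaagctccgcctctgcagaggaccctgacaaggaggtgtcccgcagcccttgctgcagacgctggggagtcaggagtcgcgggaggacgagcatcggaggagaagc
The Snrpn and Nnat windows shown hold both sets of letters, and the Ndn window only the palindrome. The other 3 windows of Snrpn hold the palindrome without TGCCGC. The Nap1l5 and Mest windows shown hold TGCCGC at 2 places each, another Mest window at chr6:30733256-30733555 holds it at 0 places, and the Peg3 window has neither set of letters. The window of Inpp5f, which also followed the neuron markers, holds neither. Peg3 and Usp29 start next to each other on opposite strands, and their windows share 263 of 300 bases. These matches describe the letters of the windows and do not show binding.

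Several imprinted transcripts also host microRNAs. RefSeq places 45 mature microRNAs within 8 of the listed genes, 26 of them within Mirg, but mature microRNAs were not measured by these libraries. The ones within H19 and Mest, the hosts with the most CPM here, are shown with the seed (bases 2 to 8) in capitals.
mmu-miR-675-5p, exon of H19, GRCm38.p6 chr7:142577112-142577133, minus strand: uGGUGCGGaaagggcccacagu
mmu-miR-675-3p, exon of H19, GRCm38.p6 chr7:142577078-142577099, minus strand: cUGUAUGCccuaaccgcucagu
mmu-miR-335-5p, intron of Mest, GRCm38.p6 chr6:30741314-30741336, plus strand: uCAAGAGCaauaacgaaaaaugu
mmu-miR-335-3p, intron of Mest, GRCm38.p6 chr6:30741354-30741375, plus strand: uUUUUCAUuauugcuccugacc
The seeds of these 4 microRNAs differ from one another.

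Libraries held 14883918 to 17767373 counts, and levels are given in CPM, counts scaled to a common depth with TMM factors. The deleted gene, 2610035D17Rik, had 2.01, 3.38 and 2.27 CPM in cKO pancreas, against 9.08, 8.76, 7.93 and 8.83 CPM in WT pancreas. The groups did not overlap, with a log2 fold change of −1.76 (SE 0.215, edgeR adjusted p = 0.0902). Summed markers of the pancreatic epithelium reached 7793 to 9488 CPM in cKO and 7907 to 12899.6 CPM in WT libraries, and summed markers of mesenchyme 10193 to 11309.8 CPM in cKO and 10262 to 12561 CPM in WT libraries. No marker of either list was at 0 in any library. Cpa1, a digestive enzyme gene, made up much of the epithelial sum (4049.7 to 5669.8 CPM in cKO and 4576 to 8831 CPM in WT libraries), while the acinar factor Ptf1a reached 51.8 to 76.6 CPM in cKO and 47.8 to 69.5 CPM in WT libraries. Summed liver markers ranged over 467 to 2087 CPM in cKO and 378 to 1398 CPM in WT libraries. Ttr made up much of the lower sums, with 247 to 358 CPM in cKO and 238 to 325 CPM in WT libraries. Alb ranged over 14.8 to 689 CPM in cKO and 8.59 to 354 CPM in WT libraries. Summed markers of neurons and Schwann cells ranged over 163 to 1174 CPM in cKO and 127 to 907 CPM in WT libraries. The column of WT replicate 4 carries another prefix than the other WT and the cKO columns, which the labels do not explain, and no cKO column shares it. In bulk RNA, fewer cells of a type and less RNA per cell cannot be told apart.

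No imprinted gene was called between cKO and WT. By edgeR's quasi-likelihood test, 0 of 39 tested genes passed an adjusted p of 0.05, against 0.00591% of all 16910 tested features, which is 1 feature. The count was also 0 at an unadjusted p under 0.05, a level that 1.38% of all features reached (0.668% higher and 0.716% lower in cKO pancreas). DESeq2 and limma-voom likewise called 0 of the imprinted genes, against 0.0769% and 0.00591% of all features. Groups that do not overlap were found for 0 of the 39, against 2.72% of all features (1.3% higher and 1.43% lower in cKO pancreas). Fold changes of imprinted genes were small and of both signs, with 19 genes higher in cKO pancreas and 20 lower, a median log2 fold change of −0.01 and a range of −0.19 to 0.18. Over all tested features the median was also −0.01, with 7771 higher and 9139 lower.

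The precision behind these values differed between genes. The 95% interval of the fold change lay within 1.5-fold either way for 20 of the 39 genes, and within 2-fold for 35. For the other 4 genes (Meg3, Kcnq1ot1, Snrpn and Nap1l5) the interval reached past 2-fold, so a change of that size is not excluded. Nap1l5, a nucleosome assembly protein relative, had the widest interval, from −2.17 to 2.22 on the log2 scale.

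**Figure D1:**
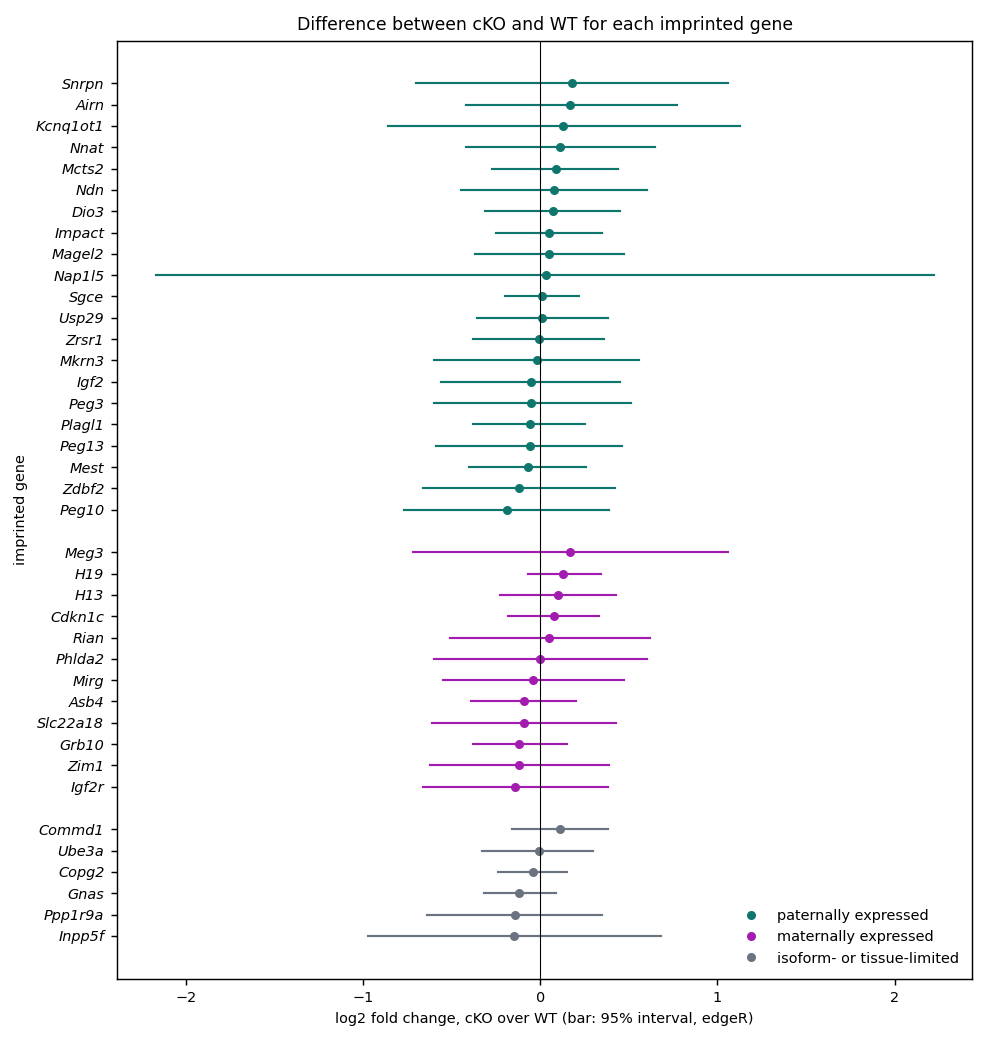
Log2 fold change of cKO over WT for each of the 39 tested imprinted genes (points) with 95% intervals from edgeR (bars), grouped by allele class. Points lie between −0.19 and 0.18, every interval includes 0, and the interval of Nap1l5 is the widest.

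Some imprinted genes were among the most abundant transcripts of the organ. The 40 genes in the table took 1.23% to 1.45% of the counts of a library. Of the tested genes, 14 averaged at least 100 CPM, 16 lay between 10 and 100 CPM, and 9 were under 10 CPM. H19, a maternally expressed long non-coding RNA, was the highest, with a mean of 6179 CPM and rank 5 among all tested features. Per kilobase of exon it averaged 2512 CPM and held rank 11. Cdkn1c came next by level per kilobase, with 272 CPM per kilobase, followed by Mest with 244 CPM per kilobase. Of their exonic bases, 30.7% in Cdkn1c and 23.1% in Mest overlap opposite-strand genes, and how reads there were counted is unknown here.

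**Figure D2:**
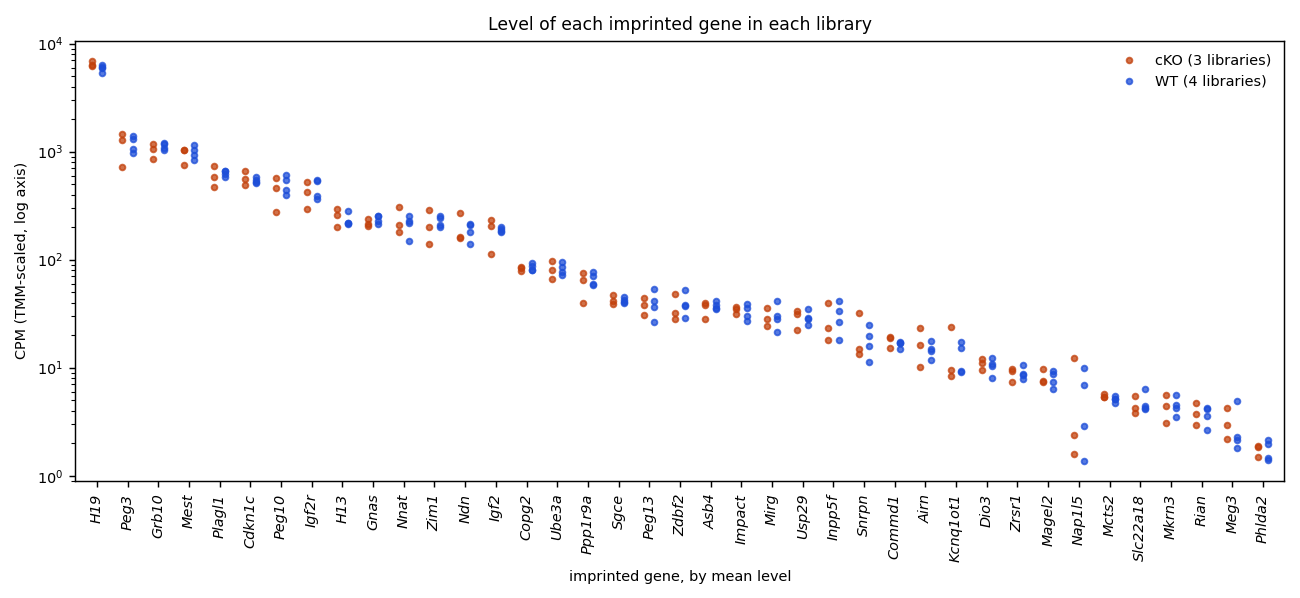
CPM of each of the 39 tested imprinted genes in each library, on a log axis, with genes ordered by mean level and cKO libraries left of WT libraries. The cKO and WT points of every gene overlap, and Nap1l5 has the widest scatter within both groups.

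In the Igf2-H19 domain on chromosome 7, the paternally expressed growth factor gene and the maternally expressed RNA share enhancers. H19 had 6942, 6395 and 6196 CPM in cKO pancreas, against 5349, 5994, 6102 and 6275 CPM in WT pancreas. It averaged 6511 ± 386 CPM in cKO and 5929.9 ± 405 CPM in WT pancreas (SD, n = 3 and 4). cKO replicate 3 lay below WT replicate 4, the other 2 cKO libraries lay above all WT libraries, and the log2 fold change was 0.13 (SE 0.0916, 95% interval −0.07 to 0.34, edgeR unadjusted p = 0.175, adjusted p = 1). This was the smallest unadjusted p of the 39 genes.

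Igf2, the fetal growth factor of this domain, had 112, 204 and 231 CPM in cKO pancreas, against 182, 201, 190.5 and 184 CPM in WT pancreas. The cKO libraries spread on both sides of the WT range, with replicate 1 the lowest of all 7 libraries and replicate 3 the highest. The log2 fold change was −0.05 (SE 0.217, 95% interval −0.56 to 0.45). The level of Igf2 is uncertain, because 64.5% of its exonic bases in GENCODE M21 overlap other genes, most of them the same-strand gene model Gm49394. The ratio of Igf2 to H19 was 1.61%, 3.19% and 3.72% in cKO libraries, against 3.41%, 3.35%, 3.12% and 2.93% in WT libraries.

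Growth-restraining genes of other domains covered a wide range of levels. Cdkn1c, the maternally expressed cyclin-dependent kinase inhibitor p57, had 667, 491 and 559 CPM in cKO pancreas, against 523, 508, 584 and 552 CPM in WT pancreas. Its log2 fold change was 0.08 (SE 0.113, 95% interval −0.18 to 0.33), and the cKO libraries held both the highest and the lowest value. Kcnq1ot1, the paternally expressed long non-coding RNA that silences this domain in cis, had 8.33, 9.47 and 24.0 CPM in cKO pancreas, against 9.13, 17.2, 15.3 and 9.26 CPM in WT pancreas. Replicate 3 of cKO stood highest for this RNA, whose annotated exon covers 93092 bases. The growth-restraining placental gene Phlda2 stayed between 1.40 and 2.12 CPM over all libraries, and the transporter gene Slc22a18 between 3.81 and 6.36 CPM.

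Grb10, a maternally expressed adaptor that binds the insulin and IGF receptors, had 864, 1067 and 1178 CPM in cKO pancreas, against 1071, 1189, 1201 and 1035 CPM in WT pancreas. The groups overlapped, with cKO replicate 1 below every other library, and the log2 fold change was −0.12 (SE 0.118, 95% interval −0.38 to 0.15, edgeR unadjusted p = 0.346). Igf2r, the maternally expressed receptor that carries IGF2 to lysosomes, had 294, 427 and 523 CPM in cKO pancreas, against 363, 545, 535 and 387 CPM in WT pancreas. Its groups overlapped as well, with a log2 fold change of −0.14 (SE 0.224). Airn, the antisense RNA whose transcription silences Igf2r on the paternal copy, had 10.2, 16.1 and 23.3 CPM in cKO pancreas, against 15.0, 11.8, 17.5 and 14.4 CPM in WT pancreas. Gnas, which encodes the stimulatory G protein alpha subunit, had 215, 236 and 207 CPM in cKO pancreas, against 253, 216, 254 and 228 CPM in WT pancreas, and its log2 fold change was −0.12 (SE 0.0906, 95% interval −0.32 to 0.09, edgeR unadjusted p = 0.228). The value of Gnas pools its transcripts, and 22.0% of its exonic bases overlap opposite-strand genes. Of these, 1469 bases are shared with Gm20721 and 988 bases with the antisense RNA Nespas. As the count settings are unknown here, reads of the shared bases may be included in the value of Gnas or missing from it.

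Among the zinc finger genes, Plagl1, a paternally expressed transcription factor known to act on other imprinted genes, had 475, 587 and 738 CPM in cKO pancreas, against 615, 657, 657 and 577 CPM in WT pancreas. The cKO libraries again spanned the whole range. Peg3, a paternally expressed zinc finger gene, had 727, 1272 and 1454 CPM in cKO pancreas, against 1052, 1409, 1319 and 980.4 CPM in WT pancreas, with a log2 fold change of −0.05 (SE 0.24). Its neighbour Usp29, of the ubiquitin-specific protease family, had 22.5, 33.8 and 31.7 CPM in cKO pancreas, against 28.2, 34.8, 28.7 and 24.7 CPM in WT pancreas. Zim1, the maternally expressed zinc finger gene of the same cluster, had 141, 202 and 286 CPM in cKO pancreas, against 209.7, 256, 243 and 202 CPM in WT pancreas. In all 3 genes of the cluster cKO replicate 1 was the lowest library. Zdbf2, a paternally expressed zinc finger gene on chromosome 1, had 28.5, 32.3 and 47.6 CPM in cKO pancreas, against 38.3, 37.1, 52.5 and 29.1 CPM in WT pancreas.

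In the Mest domain on chromosome 6, Mest, a paternally expressed gene of the alpha/beta hydrolase family, had 749, 1027 and 1040.2 CPM in cKO pancreas, against 935, 1143, 1027 and 829.8 CPM in WT pancreas. Copg2, a coat protein of Golgi vesicles that overlaps Mest tail to tail over 912 exonic bases, had 78.0, 84.6 and 86.3 CPM in cKO pancreas, against 88.0, 94.1, 79.4 and 80.3 CPM in WT pancreas. Reads of the overlapping ends cannot be assigned, as the libraries were not made to keep the strand. Both genes had overlapping groups, with log2 fold changes of −0.07 (SE 0.146) for Mest and −0.04 (SE 0.0866) for Copg2.

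In the Sgce-Peg10 domain, Peg10, a paternally expressed gene derived from a retrotransposon, had 279, 456 and 572 CPM in cKO pancreas, against 443, 603, 548 and 398 CPM in WT pancreas. Its log2 fold change was −0.19 (SE 0.249, 95% interval −0.77 to 0.39, edgeR unadjusted p = 0.462), the most negative of the 39 genes, and the groups overlapped. Sgce, which encodes epsilon-sarcoglycan and is transcribed away from Peg10, had 46.6, 41.7 and 39 CPM in cKO pancreas, against 40.6, 39.6, 45.6 and 42.3 CPM in WT pancreas. It varied little, with the highest library 1.2 times the lowest. Ppp1r9a, which encodes the actin-binding protein neurabin, had 39.6, 65.0 and 75.8 CPM in cKO pancreas, against 59.3, 77.7, 70.4 and 58.1 CPM in WT pancreas. Asb4, a maternally expressed gene of the SOCS box family, had 28.0, 38.4 and 39.3 CPM in cKO pancreas, against 38.4, 41.1, 35.6 and 35.2 CPM in WT pancreas.

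The Snrpn-Ube3a domain on chromosome 7 holds genes best known from neurons. Ndn, a paternally expressed gene of the MAGE family, had 270.3, 159 and 161 CPM in cKO pancreas, against 211, 139.6, 212 and 182 CPM in WT pancreas. Snrpn, which encodes a spliceosomal protein, had 32.3, 13.4 and 15.0 CPM in cKO pancreas, against 24.6, 11.2, 19.5 and 16.0 CPM in WT pancreas. In both genes cKO replicate 1 was the highest library and WT replicate 2 the lowest. The log2 fold change was 0.08 (SE 0.226) for Ndn and 0.18 (SE 0.375, 95% interval −0.70 to 1.06) for Snrpn, and 34.1% of the exonic bases of Snrpn overlap other genes. Ube3a, a ubiquitin ligase that is imprinted in neurons and expressed from both copies elsewhere, had 66.7, 80.8 and 97.0 CPM in cKO pancreas, against 76.2, 94.5, 85.6 and 72.3 CPM in WT pancreas. The value of Ube3a may include reads of opposite-strand genes, since 27.3% of its exonic bases overlap such genes. Of these, 1803 bases are shared with Snhg14, which had 116 to 346 counts per library. Magel2 and Mkrn3, paternally expressed genes of the same domain, averaged 8.06 CPM and 4.42 CPM over the libraries.

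Other genes known for expression in the nervous system were also measured. Nnat, a paternally expressed membrane proteolipid found in neurons and endocrine cells, had 305, 209 and 179 CPM in cKO pancreas, against 256, 148, 219.5 and 230.2 CPM in WT pancreas, with a log2 fold change of 0.11 (SE 0.23). Nap1l5 had 12.2, 1.60 and 2.38 CPM in cKO pancreas, against 9.89, 1.37, 6.95 and 2.90 CPM in WT pancreas. It varied most of all imprinted genes, with the highest library 8.92 times the lowest, and the high and low libraries were found in both groups. Inpp5f, a phosphoinositide phosphatase gene whose brain isoform is imprinted, had 39.8, 18.2 and 23.2 CPM in cKO pancreas, against 41.1, 18.1, 33.8 and 26.7 CPM in WT pancreas. Peg13, a paternally expressed non-coding RNA on chromosome 15, had 44.3, 38.2 and 30.8 CPM in cKO pancreas, against 53.2, 26.7, 41.6 and 36.3 CPM in WT pancreas.

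In the Dlk1-Dio3 domain on chromosome 12, the maternally expressed long non-coding RNAs differed in level. Mirg, a microRNA host transcript, had 35.8, 28.0 and 24.3 CPM in cKO pancreas, against 41.3, 21.5, 28.1 and 29.8 CPM in WT pancreas. Meg3 averaged 2.94 CPM and Rian 3.72 CPM over the libraries. Dio3, the paternally expressed deiodinase that inactivates thyroid hormone, averaged 10.6 CPM. Dlk1, which encodes a membrane protein related to Notch ligands, had 0, 2 and 1 counts in the cKO libraries and 2, 1, 0 and 0 counts in the WT libraries, and it was not tested. With 3 counts in each group, no fold is given for it. The annotation behind the submitters' count step is unknown here, which limits what these low counts show.

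The remaining domains held genes of unequal level. H13, the maternally expressed signal peptide peptidase gene, had 292, 261 and 201 CPM in cKO pancreas, against 220.1, 216, 217 and 284 CPM in WT pancreas. Mcts2, a paternally expressed retrogene within an intron of H13, averaged 5.44 ± 0.207 CPM in cKO and 5.12 ± 0.327 CPM in WT pancreas (SD, n = 3 and 4). Commd1, a regulator of copper and NF-kappaB signalling, had 18.9, 15.3 and 19.2 CPM in cKO pancreas, against 15.0, 16.9, 16.9 and 17.3 CPM in WT pancreas. The log2 fold change of Commd1 was 0.11 (SE 0.119, 95% interval −0.16 to 0.38, edgeR unadjusted p = 0.389), with overlapping groups. Zrsr1, a splicing factor retrogene within Commd1 that shares 412 exonic bases with it, averaged 8.86 CPM. Impact, a paternally expressed regulator of translation, had 36.4, 31.2 and 34.8 CPM in cKO pancreas, against 35.7, 30.3, 38.9 and 27.2 CPM in WT pancreas.

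Genes of each allele class were found on both sides of 0. Of 21 tested paternally expressed genes 12 were higher in cKO pancreas and 9 lower, with a median log2 fold change of 0.01. Of 12 maternally expressed genes 6 were higher and 6 lower, with a median of −0.02, and of the 6 genes with limited imprinting 1 was higher and 5 lower, with a median of −0.08. That last count turned to 4 higher and 2 lower without cKO replicate 1, with a median of 0.04. Summed over genes, paternally expressed transcripts made up 3196, 4173 and 4657 CPM in cKO pancreas, against 3987, 4544, 4478 and 3621 CPM in WT pancreas. Maternally expressed transcripts summed to 9073 ± 186 CPM in cKO and 8595 ± 516 CPM in WT pancreas (SD, n = 3 and 4). H19 made up most of the maternal sum, which without it was 2562 ± 245 CPM in cKO and 2666 ± 183 CPM in WT pancreas (SD, n = 3 and 4).

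The balance within a cluster was compared as the ratio of a paternally expressed to a maternally expressed gene, for 4 pairs, with genotypes reassigned in all 35 possible ways (exact permutation, 2-sided). The smallest p that this design allows is 0.0286. The ratio of Igf2 to H19 was 2.84% ± 1.10 in cKO and 3.2% ± 0.22 in WT pancreas (SD, n = 3 and 4, exact permutation p = 0.657, adjusted over the 4 ratios 0.876). Airn to Igf2r was 3.89% ± 0.511 in cKO and 3.32% ± 0.844 in WT pancreas (exact permutation p = 0.4, adjusted 0.876). The Airn to Igf2r ratio was lowest in WT replicate 2. Peg3 to Zim1 was 551% ± 67.7 in cKO and 520.4% ± 31.4 in WT pancreas (exact permutation p = 0.543, adjusted 0.876), and Kcnq1ot1 to Cdkn1c was 2.49% ± 1.60 in cKO and 2.35% ± 0.807 in WT pancreas (exact permutation p = 0.914, adjusted 0.914). All 4 ratios had overlapping groups.

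Levels of imprinted genes varied between libraries of both genotypes. The median SD of log2 CPM over the 7 libraries was 0.26 among the 39 genes and 0.20 among all tested features. Covariation was tested for 22 pairs of genes, within a domain or with a known relation. The test was an exact permutation over all pairings of the 7 libraries, with Benjamini-Hochberg adjustment over the 22. These pairs were chosen with earlier results of these data known, so their p values describe the chosen pairs and give no independent support. The libraries share depth, composition and cell mixture, so each r describes these 7 libraries. Another 4 pairs, with Dlk1 or Rtl1, were not tested.

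Snrpn and Ndn, of the same domain, moved together most closely. Pearson's r was 0.98 (exact permutation p = 0.000397, adjusted 0.00873) and Spearman's rho 0.96 (exact permutation p = 0.00278, adjusted 0.0306). Without WT replicate 1 and cKO replicate 1, the libraries farthest from the Snrpn median, r was again 0.98. Without cKO replicate 1 alone, r was 0.95 with an adjusted exact permutation p of 0.0611, and without WT replicate 4 alone it was 0.98 with the same adjusted p. Ndn and Magel2, of the same domain, gave an r of 0.10 (exact permutation p = 0.832, adjusted 0.832) and a rho of 0.14 (exact permutation p = 0.783, adjusted 0.861).

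Peg3 and Mest, of different domains, had an r of 0.96 (exact permutation p = 0.00139, adjusted 0.0153) and a rho of 0.96 (exact permutation p = 0.00278, adjusted 0.0306). Without WT replicate 4 and cKO replicate 1, r was 0.83. The adjusted exact permutation p was 0.0713 on leaving out cKO replicate 1, 0.0611 on leaving out WT replicate 1 and 0.107 on leaving out WT replicate 4. Peg3 and Usp29, which share most of the promoter window shown above, had an r of 0.90 (exact permutation p = 0.00417, adjusted 0.0306) and a rho of 0.82 (exact permutation p = 0.0341, adjusted 0.215), and r was 0.61 without WT replicate 4 and cKO replicate 1. Leaving out any of cKO replicate 1, cKO replicate 3, WT replicate 1, WT replicate 2 or WT replicate 4 took its adjusted exact permutation p to 0.275, 0.0509, 0.0611, 0.0655 and 0.131, in that order. Peg3 and Usp29 were thus both low in cKO replicate 1 and WT replicate 4.

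Plagl1 and Igf2 had an r of 0.91 (exact permutation p = 0.00893, adjusted 0.0491) and a rho of 0.71 (exact permutation p = 0.0881, adjusted 0.215). This relation rested on 2 libraries, since r was 0.20 without cKO replicates 1 and 3. Its adjusted exact permutation p was 0.316 and 0.172 on leaving out cKO replicate 1 or 3 in that order, and 0.0611, 0.0655 and 0.131 on leaving out WT replicate 1, 2 or 4. Igf2 and H19 had an r of −0.51 (exact permutation p = 0.263, adjusted 0.362) and a rho of −0.07 (exact permutation p = 0.906, adjusted 0.95), and r turned to 0.54 without cKO replicates 1 and 3. Sgce and Peg10 had an r of −0.64 (exact permutation p = 0.12, adjusted 0.241) and a rho of −0.71 (exact permutation p = 0.0881, adjusted 0.215). No other tested pair passed an adjusted p of 0.05.

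**Figure D3:**
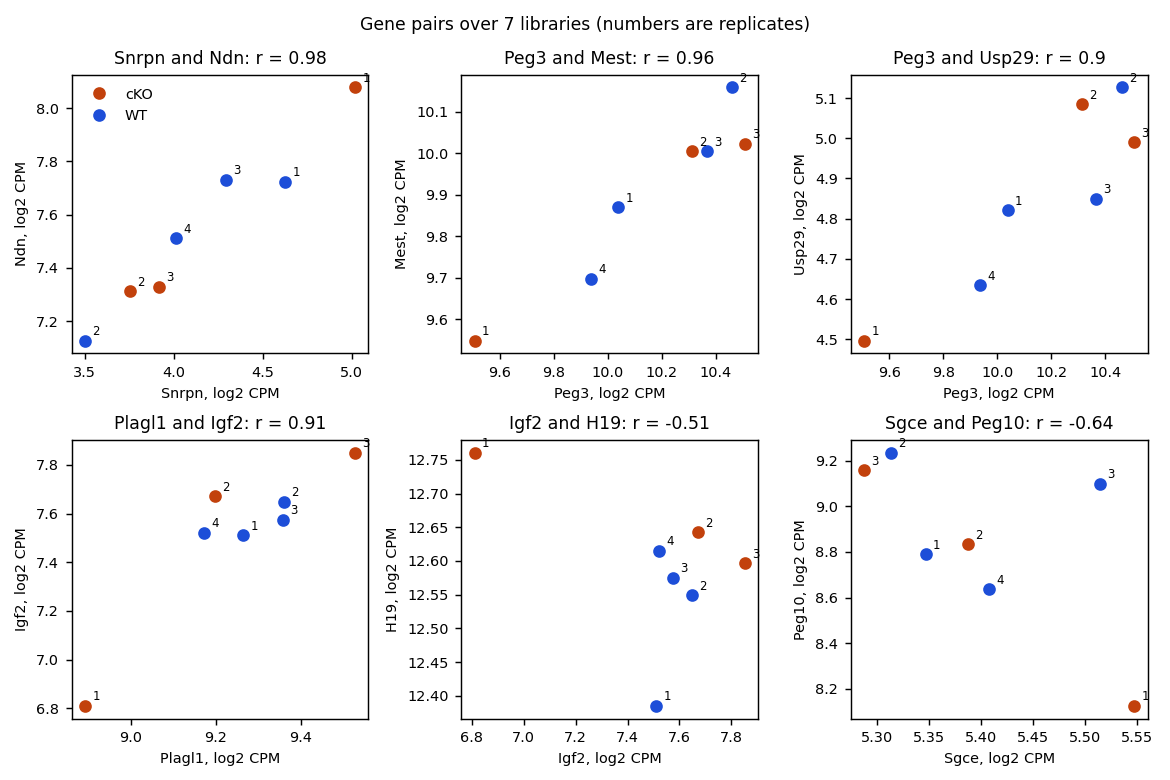
Log2 CPM of 6 gene pairs in the 7 libraries, with cKO and WT libraries in different colours and replicate numbers beside the points. Snrpn and Ndn lie close to a line over all libraries (r = 0.98), while the line of Plagl1 and Igf2 depends on cKO replicates 1 and 3.

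Over all pairs of the 39 genes, 132 of 741 (17.8%) had an r of at least 0.7 and 90 (12.1%) an r of at most −0.7. Over all tested features these shares were 7.28% and 6.70%. Pairs share genes, so these counts are a description.

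Markers of other cell types moved between libraries within both groups, and their part in these patterns was not tested. The mean log2 CPM of 13 tested neuron and Schwann cell markers was 5.53, 2.97 and 3.28 in cKO libraries. In WT libraries this mean was 5.37, 2.63, 5.05 and 4.24. Foxd3, the other marker of the 14 listed, had too few counts to be tested and is not in the mean. All 14 were present, although Foxd3 was at 0 in a library. Comparing libraries by pairs, the order of Snrpn and of Nap1l5 was the same as that of the marker mean in all 21 pairs of libraries, a property that 126 of all tested features shared. Inpp5f and Ndn followed it in 20 pairs and Nnat in 19, and Mkrn3, Mirg and Peg13 in 18. Usp29 ran the other way, with the same order in 2 pairs, so that an order the same in at most 2 pairs was found for 2.56% of imprinted genes and 2.12% of all features. An order the same in at least 19 pairs was thus found for 5 of 39 imprinted genes (12.8%), against 4.54% of all features, and the measure was chosen after the values had been seen. The mean of the liver markers was 5.66, 2.20 and 2.82 in cKO libraries, against 1.90, 2.73, 1.98 and 5.08 in WT libraries, and 0 imprinted genes followed it in 19 pairs or more, against 1.02% of all features. The count was 1 for mesenchyme markers (Impact, 20 pairs) and 1 for macrophage markers (H19, 19 pairs), each 2.56% of imprinted genes, against 1.03% and 1.34% of all features.

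**Figure D4:**
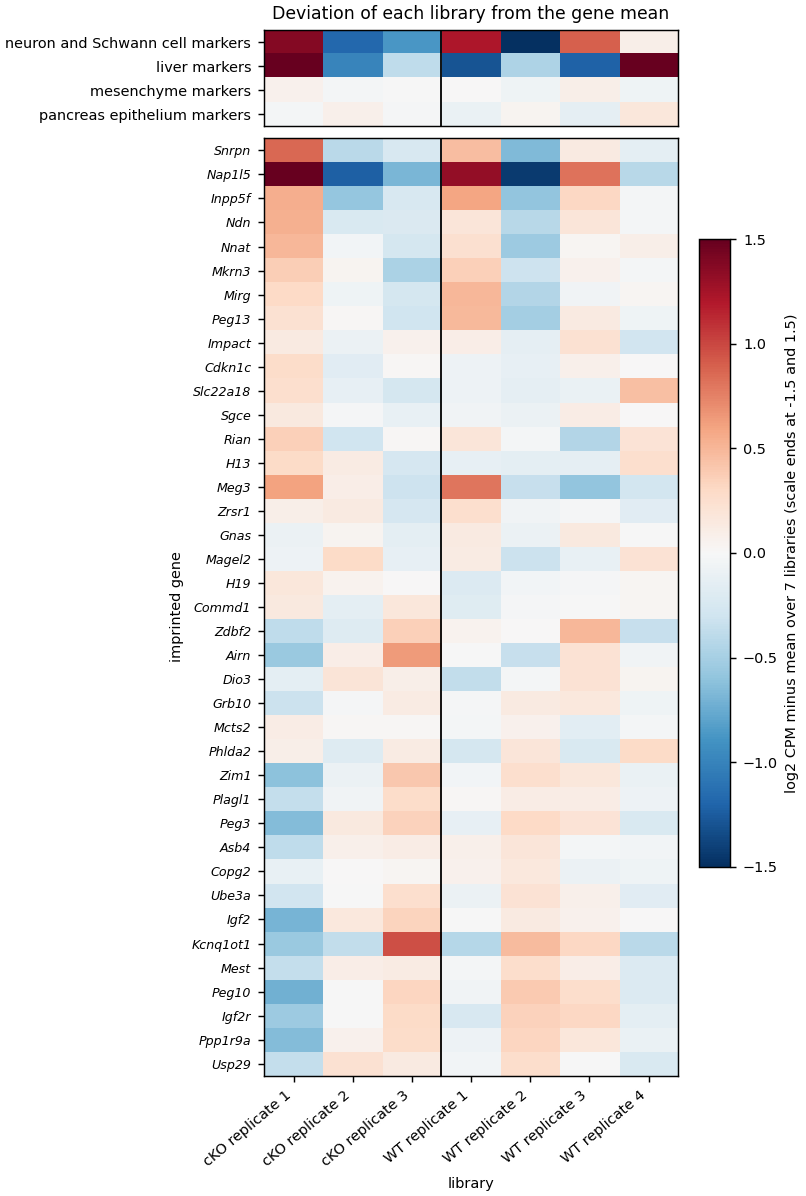
Deviation of each library from the gene's mean log2 CPM over the 7 libraries, for the mean of 4 marker lists (top) and the 39 imprinted genes (bottom), with genes ordered by how closely they follow the neuron and Schwann cell markers and cKO libraries left of WT libraries. Snrpn, Nap1l5, Inpp5f and Ndn are high in cKO replicate 1 and WT replicate 1 and low in WT replicate 2, while Peg10, Igf2r and Ppp1r9a at the foot are low in cKO replicate 1.

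Transcript length also moved with the libraries, and its part in these values was not tested. In cKO replicate 1 the median deviation from the gene mean was −0.15 on the log2 scale over the 4166 features with at least 6450 exonic bases and 0.17 over the 4168 features with at most 2404. In the other libraries these medians lay between −0.06 and 0.08. In cKO replicate 1 the deviation was −0.72 for Peg10, −0.65 for Peg3 and for Ppp1r9a, −0.61 for Zim1 and −0.55 for Igf2r. These 5 genes are among the long features, whereas Igf2, at −0.70, has 5723 exonic bases and is not. Of 18 long imprinted genes 12 were below their mean in this library and 6 above it, among them Meg3 at 0.60 and Inpp5f at 0.54. The deviation was 0.86 for Snrpn and 1.62 for Nap1l5, which are among the short features. Of 8 short imprinted genes 7 were above their mean and 1, Dio3, below it at −0.15.

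Lists of related genes were counted in the same way. Of 39 tested further imprinted genes 19 were higher in cKO pancreas and 20 lower, with a median log2 fold change of −0.02, and 0 were called. The one with the smallest p, the amino acid transporter gene Slc38a4, averaged 174 ± 22.8 CPM in cKO and 194 ± 15.0 CPM in WT pancreas (SD, n = 3 and 4), with a log2 fold change of −0.16 (SE 0.108, edgeR unadjusted p = 0.18). A list of imprint control genes held genes that set or maintain imprints and also Tet1, Tet2 and Tet3, which act in removing DNA methylation. Of its 16 tested genes 1 was higher in cKO pancreas and 15 lower, with a median of −0.09. Of these genes 0 were called, while 54.0% of all features were lower. The count rested on cKO replicate 1, without which 10 were higher and 6 lower, with a median of 0.05. Uhrf1, which brings the maintenance methyltransferase to replicating DNA, averaged 183 ± 18.9 CPM in cKO and 202 ± 18.9 CPM in WT pancreas (SD, n = 3 and 4), with a log2 fold change of −0.14 (SE 0.104, edgeR unadjusted p = 0.205). Of 18 partners of the IGF pathway, its receptors, binding proteins and RNA-binding regulators, 9 were higher and 9 lower, with a median of 0.00, and 0 were called. Igfbp6, an IGF binding protein with a preference for IGF2, averaged 11.3 ± 5.43 CPM in cKO and 7.95 ± 2.77 CPM in WT pancreas (SD, n = 3 and 4), with a log2 fold change of 0.51 (SE 0.379, edgeR unadjusted p = 0.214).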

How the data were processed

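Polyadenylated RNA of 7 pancreas libraries, 3 cKO and 4 WT, was sequenced by the authors, and the kit named in the labels has no step that keeps the strand, so a gene and an antisense partner cannot be told apart. The authors deposited raw read counts per feature, not normalized. Per the submitters' processing notes, HISAT2, StringTie, featureCounts and the build mm39 were used, and their roles, versions and settings are unknown here. GENCODE M21 on GRCm38, another build, served only for names, exon lengths, overlaps and chromosomes, and 26764 identifiers matched a symbol. Features listed by a running number (315) took 0.206% of counts and stayed in the library totals.

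Counts were filtered with filterByExpr and tested with edgeR 4.0.16 in R 4.3.3 (TMM factors 0.952 to 1.04, glmQLFit with robust estimation, glmQLFTest, group as the only term, Benjamini-Hochberg over 16910 features, threshold 0.05). The common biological coefficient of variation was 0.218. Log2 CPM used a prior count of 2. Alternatives used DESeq2 1.42.0 and limma 3.58.1, and the test was tried on simulated data. Libraries of one group differed well beyond counting error (chi-square over its degrees of freedom, 16.9 to 48.9) and none was treated as a repeat. Per-library values are given for genes of at least 20 CPM on average and for the 3 smallest p in each direction; values of other genes were added where a domain needed them, with their values known. Gene lists, allele classes and the 22 tested pairs were chosen with earlier results of these data known, and the library-order, length and GCATGCG measures after the values were seen.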

Additional observations from a re-analysis of the deposited data

Results flagged for a closer look

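H13, the signal peptide peptidase gene, stood apart in WT replicate 4, with 284 CPM against 216 to 220.1 CPM in the other 3 WT libraries. The gap to the nearest library was 0.937 of the range of the group, above Dixon's 95% critical value for 4 samples. The WT values of 26 genes were examined in this way and 1 exceeded the value, while chance gives about 1 in 20. The cKO libraries had 292, 261 and 201 CPM of H13, so WT replicate 4 lay within the cKO range. In WT replicate 4 the liver markers were also high, with a mean log2 CPM of 5.08 against 1.90 to 2.73 in the other WT libraries, and their part in the H13 value was not tested. The column of this library also carries another prefix than the other 3 WT columns, which the labels do not explain, and its part was not tested either.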

How the results depend on the processing

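Imprinted genes called numbered 0 under every alternative run. Of the 26 genes that met the rule for per-library values, the smallest adjusted p under any alternative was 0.972 (edgeR, without cKO replicate 3). H19, Gnas and Commd1, 3 of the 26, kept the sign of their fold change throughout. Snrpn, Nap1l5, Kcnq1ot1 and Airn, whose values were added, are not among the 26. Of all tested features 1 was called, against 0 with DESeq2 size factors, 0 with library totals, 4 without a filter, 13 by DESeq2 and 13 with the replicate block, and 0 to 3 on leaving out 1 library. The median log2 fold change of maternally expressed genes, −0.02, was 0.07 with the replicate block and −0.07 to 0.07 on leaving out 1 library (0.07 without WT replicate 4). For all imprinted genes that range was −0.05 to 0.02 and for paternally expressed genes −0.05 to 0.08, and with the block both medians were −0.07. For the 6 genes with limited imprinting the range on leaving out 1 library was −0.11 to 0.04. For the list of imprint control genes it was −0.20 to 0.05 (both added after seeing the data). The deviations of same-numbered libraries correlated at 0.284, 0.419 and 0.06. The cKO libraries of numbers 1 and 2 matched the WT library of their own number best, and number 3 did not. Whether libraries were paired by number is therefore not settled here. Of 22 gene pairs 4 passed, against 7 with values centred within group, 6 with size factors and 0 to 8 on leaving out 1 library (added after seeing the data; 0 without cKO replicate 1 or WT replicate 4, where fewer libraries also raise the smallest possible p). Calls without the 2 farthest libraries were not run, and the r values stand in the report. The cause of these differences was not tested. Low counts limit Dlk1, whatever their cause, and the spread between libraries limits Nap1l5.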
